A study of Mus musculus with 10 samples.

Results

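The expression of 56 genes of mitosis and the G2/M transition was followed in reporter-positive cells isolated by sorting from mouse brain on the side of the ischemia. The genes come from a list of known functional members that was chosen with earlier results of these data known. They are therefore not an unselected list, although the rule that names them uses no measured value. All 56 were among the 28585 genes of the deposited count table. All 56 also passed a filter on low counts that 15151 genes passed. For each library the counts were divided by the TMM-scaled library size (CPM), and the mean of the log2 CPM over the 56 genes was taken as a summary, called the set mean here.

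Total RNA was sequenced from 10 libraries in 3 groups. Microglia, the resident phagocytes of the brain, came from CX3CR1CreERT2:Rosa26-tdT mice of 13 to 14 weeks (3 libraries), in which an inducible recombinase made under the control of Cx3cr1 switches on the red protein tdTomato. Parabiotic CD11c cells (3 libraries) were CD11c-eYFP+ cells from C57BL/6 mice of 15 to 16 weeks that shared a circulation with a Tg(Itgax-Venus)1Mnz partner. The yellow reporter of that transgene is driven by the promoter of Itgax, the gene of CD11c. Since the wild type host has no reporter of its own, its yellow cells carry the transgene of the partner. Transgenic CD11c cells (4 libraries) were CD11c-eYFP+ cells from Tg(Itgax-Venus)1Mnz mice themselves, of 13 to 14 weeks, in which resident and infiltrating cells can both carry the reporter. All groups were sampled from ischemic tissue, and no group without ischemia was compared. Parabiotic cells differed from both other groups in parabiosis and age, and microglia from both in mouse line and reporter. In the comparisons below these differences cannot be told apart from that of the cell population. The labels give female sex for 9 libraries, and parabiotic library 15, which has no cell type label, was placed by its title and age. Nothing in the labels says how many mice gave a library, so the p-values measure the spread between these libraries as labelled.

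A cell that has copied its DNA enters mitosis when the kinase Cdk1 is activated by cyclins A and B. The chromosomes are then condensed, attached by their kinetochores to spindle microtubules and checked, until the anaphase-promoting complex (APC/C) is switched on by Cdc20 and the cell divides. Most of the genes of this programme are transcribed together late in the cell cycle, under the DREAM and MuvB complexes with B-Myb and Foxm1. They are therefore used as markers of dividing cells, and microglia are known to divide in injured brain tissue. In sorted bulk samples, fewer dividing cells and less of each transcript per dividing cell cannot be told apart.

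Library totals ran from 31534625 to 41730688 counts. Microglia markers (10 genes such as P2ry12 and Tmem119) summed to between 20916 and 23288 CPM in microglia libraries, between 2063 and 3606 CPM in parabiotic ones and between 6340.5 and 18312 CPM in transgenic ones. Markers of dendritic cells (10 genes such as Flt3 and the MHC class II genes) summed to between 229 and 348 CPM, between 27184 and 34763 CPM and between 4148 and 17111 CPM in the same order. Most of the dendritic sum came from H2-Aa, H2-Ab1 and Cd74. In parabiotic library 3 these measured 6128, 10131 and 16706 CPM of a sum of 33982 CPM. None of the genes in either list was at 0 in every library of a group. Neutrophil markers were under 1 CPM in sum in all microglia libraries and reached 849 CPM in parabiotic library 11, against 8.79 CPM in library 3 and 109 CPM in library 15. Transgenic libraries 26 and 27 carry library numbers apart from the other 8, which are numbered in sequence. None of these values was used to correct the genes below, and their part in the results was not tested.

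The upstream DNA of these genes is shown first because a common set of short promoter elements is what ties the programme together in textbook accounts. Promoters of 43 of the 56 members were found in a RefSeq table on GRCm38.p6 (48 promoters, since 4 genes have more than 1 start). Searched on both strands were CCAAT, the box bound by NF-Y, and TTTGAA, a form of the cell cycle genes homology region through which DREAM and MuvB act. The 150 bases before the RefSeq start are printed 5′ to 3′ on the gene's strand, for 4 members with the common expression pattern and for Cdc25b, which departed from it. The gene positions given with the values below are those of GENCODE, whose starts can differ: the stretches of Cdk1 and Cdc20 run 26 and 9 bases into the GENCODE gene. Capitals mark CCAAT and TTTGAA or their reverse complements ATTGG and TTCAAA.
Cdk1 (chr10:69352913-69353062, minus strand): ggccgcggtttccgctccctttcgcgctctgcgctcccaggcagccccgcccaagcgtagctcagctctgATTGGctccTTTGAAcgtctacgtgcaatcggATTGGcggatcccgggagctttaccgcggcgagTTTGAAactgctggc
Ccnb2 (chr9:70421555-70421704, minus strand): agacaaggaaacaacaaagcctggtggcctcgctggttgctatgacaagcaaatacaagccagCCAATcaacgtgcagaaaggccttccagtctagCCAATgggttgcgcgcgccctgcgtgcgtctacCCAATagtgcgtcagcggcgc
Cdc20 (chr4:118437344-118437493, minus strand): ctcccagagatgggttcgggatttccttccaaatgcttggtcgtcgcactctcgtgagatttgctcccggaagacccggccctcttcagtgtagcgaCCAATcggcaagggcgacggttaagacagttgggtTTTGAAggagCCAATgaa
Top2a (chr11:99024190-99024339, minus strand): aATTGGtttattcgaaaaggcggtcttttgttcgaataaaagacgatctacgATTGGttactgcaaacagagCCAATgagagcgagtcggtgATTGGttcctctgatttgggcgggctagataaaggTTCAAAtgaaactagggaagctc
Cdc25b (chr2:131186798-131186947, plus strand): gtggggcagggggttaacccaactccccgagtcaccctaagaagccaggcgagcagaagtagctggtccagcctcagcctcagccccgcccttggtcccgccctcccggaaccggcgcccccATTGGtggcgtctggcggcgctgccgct

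In the 250 bases before the start, CCAAT was found in 37 of the 48 member promoters (77.1%, 95% Wilson interval 63.5% to 86.7%), against 33.9% of all 32851 promoters of the table. TTTGAA was found in 18 of 48 (37.5%, interval 25.2% to 51.6%) against 16.0% of all. The intervals treat promoters as independent, although nearby starts of 1 gene, as in Bub3 and Ect2, can share an element. Counted by gene, CCAAT was found in 32 of 43 members and TTTGAA in 16. For E2F factors the core TTCCCGC was searched, and also its variants TTGCCGC as well as TTCGCGC and, with both changes, TTGGCGC. At least 1 form was found in 8 of 48 (16.7%, interval 8.70% to 29.6%) against 7.89%. The TTTGAA element lay close to the start in many members. In a window of 50 bases on each side of the start, which was chosen after the values were seen, 31 of 48 member promoters held it (64.6%, interval 50.4% to 76.6%) against 4.94% of all promoters. By gene, 29 of 43 members held it there. The printed stretches show this for Cdc20, where it begins 18 bases before the start and CCAAT 8 bases before, and for Top2a, where it begins 23 bases before. In the printed stretch of Cdk1 it occurs at 71 and at 15 bases before the start, and CCAAT at 80 and 48. The genes that departed from the common expression pattern differed in this. Bub3 has TTTGAA 43 bases before its first RefSeq start and CCAAT at 74 and 32, and Cenpa has CCAAT at 109 and 86 and TTTGAA 17 bases past its start. These windows of Bub3 and Cenpa lie largely inside the GENCODE genes, by 148 and 109 of the 150 bases. Cdc25b has CCAAT at 28 bases before its start and no TTTGAA in the 250 bases before or the 50 bases past it. Of the 43 members, 9 held none of the searched motifs in the 250 bases. A match of letters is no measure of binding, and a window without a match says only that these letters are not in it. The remaining members, which had no entry, were Foxm1, Cdc25c, Dlgap5, Pbk, Stmn1, Incenp, Esco2, Smc4, Ccna2, Aurkb, Tpx2, Kif20a and Spc24.

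The mitotic genes were high in microglia and in transgenic CD11c cells and low in parabiotic CD11c cells. The set mean was 4.21, 4.70 and 5.29 log2 CPM in microglia libraries 39, 40 and 41, and 2.89, 2.53 and 2.34 in parabiotic libraries 3, 11 and 15. In transgenic libraries 23, 24, 26 and 27 it was 4.67, 4.62, 5.94 and 4.76. All 3 parabiotic libraries lay below all 7 others, and the microglia and transgenic ranges overlapped. The group means were 4.74 ± 0.54 (SD, n = 3), 2.59 ± 0.28 (SD, n = 3) and 5.00 ± 0.63 (SD, n = 4). In linear terms the 56 genes together made up 1296 to 2682 CPM in microglia, 538 to 686 CPM in parabiotic cells and 1729 to 4056 CPM in transgenic cells. No test was made of the set mean, because the genes were chosen with results of these data known.

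**Figure D1:**
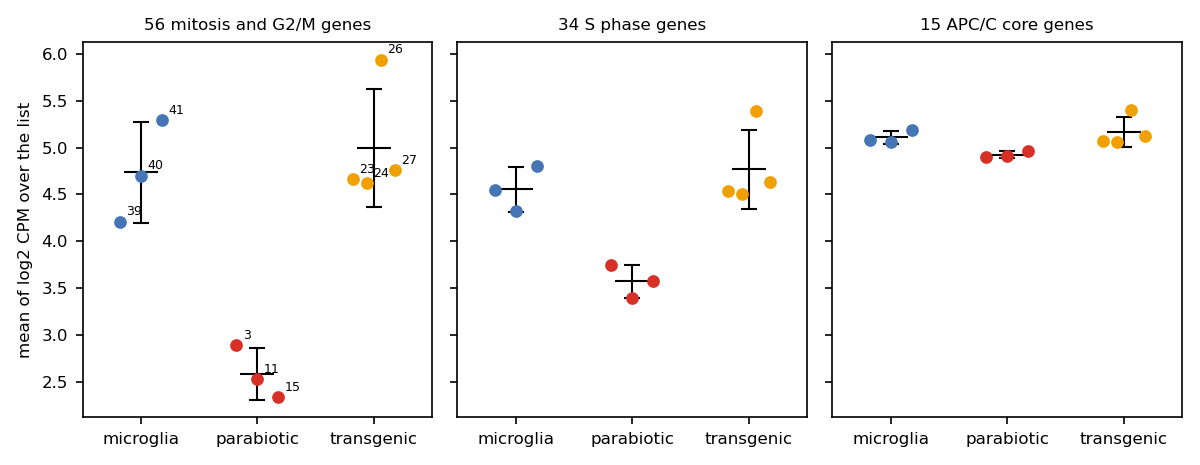
Mean of log2 CPM over the genes of a list (vertical axis) in each library (points, with replicate numbers in the left panel) of the 3 groups (horizontal axis), with group mean and SD as bars. The parabiotic libraries lie lowest for the 56 mitosis and G2/M genes, between 2.34 and 2.89, and differ less from the others for the 34 S phase genes and least for the 15 core genes of the APC/C.

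Against microglia, parabiotic CD11c cells had lower levels of 50 of the 56 genes and a higher level of 1, Cenpa, while 5 were not called (edgeR quasi-likelihood test, Benjamini-Hochberg adjusted p under 0.05 over all 15151 genes tested). Of all genes tested, 17.9% were called lower, 17.4% higher and 35.3% in either direction in this comparison. The median log2 fold change of the 56 genes was -2.33 against -0.02 for all genes tested. As a percentage of the mean level in microglia, the parabiotic mean level was under 25% for 38 members, between 25% and 50% for 14, and above 100% for Cenpa, Cdc25b and Bub3. In 52 members every parabiotic library lay below every microglia library, an arrangement found in 29.7% of all genes tested. The called decreases ran from -1.20 to -3.66 on the log2 scale, with adjusted p between 3.57e-05 and 0.0251.

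Against parabiotic CD11c cells, transgenic CD11c cells had higher levels of 53 of the 56 genes and a lower level of 0 (edgeR; 0 were also lower at an unadjusted p under 0.05, and 0 by DESeq2 or limma-voom), where 7.63% of all genes tested were called higher, 2.42% lower and 10.1% in either direction. In 53 members every transgenic library lay above every parabiotic one (12.4% of all genes tested), and in 0 below (10.3% of all). The median log2 fold change was 2.63, against 0.04 for all genes. The 3 members not called were Cenpa, Cdc25b and Bub3. Without transgenic library 26 the median was 2.10 and 52 members were called higher, and within the 8 libraries of the consecutive number series the median was 2.09 with 52 called. This comparison uses the same parabiotic libraries as the one with microglia, so the counts are not independent of each other.

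Between transgenic CD11c cells and microglia, 1 member was called higher, Cenpa, and 0 lower (edgeR; 2 members were higher and 0 lower at an unadjusted p under 0.05, and DESeq2 and limma-voom called 1 each). Of all genes tested 8.88% were called higher, 4.79% lower and 13.7% in either direction. Every transgenic library lay above every microglia library in 1 member (15.6% of all genes tested) and below in 0 (14.7% of all). The median log2 fold change of the members was 0.32, against 0.02 for all genes. It changed sign with 1 library: without transgenic library 26 it was -0.16, and with a term for the library-number series it was -0.19. The other 55 members ran from -0.23 to 0.92 with standard errors of up to 0.56, and the smallest adjusted p among them was 0.118. A p over the threshold does not show that levels were equal.

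**Figure D2:**
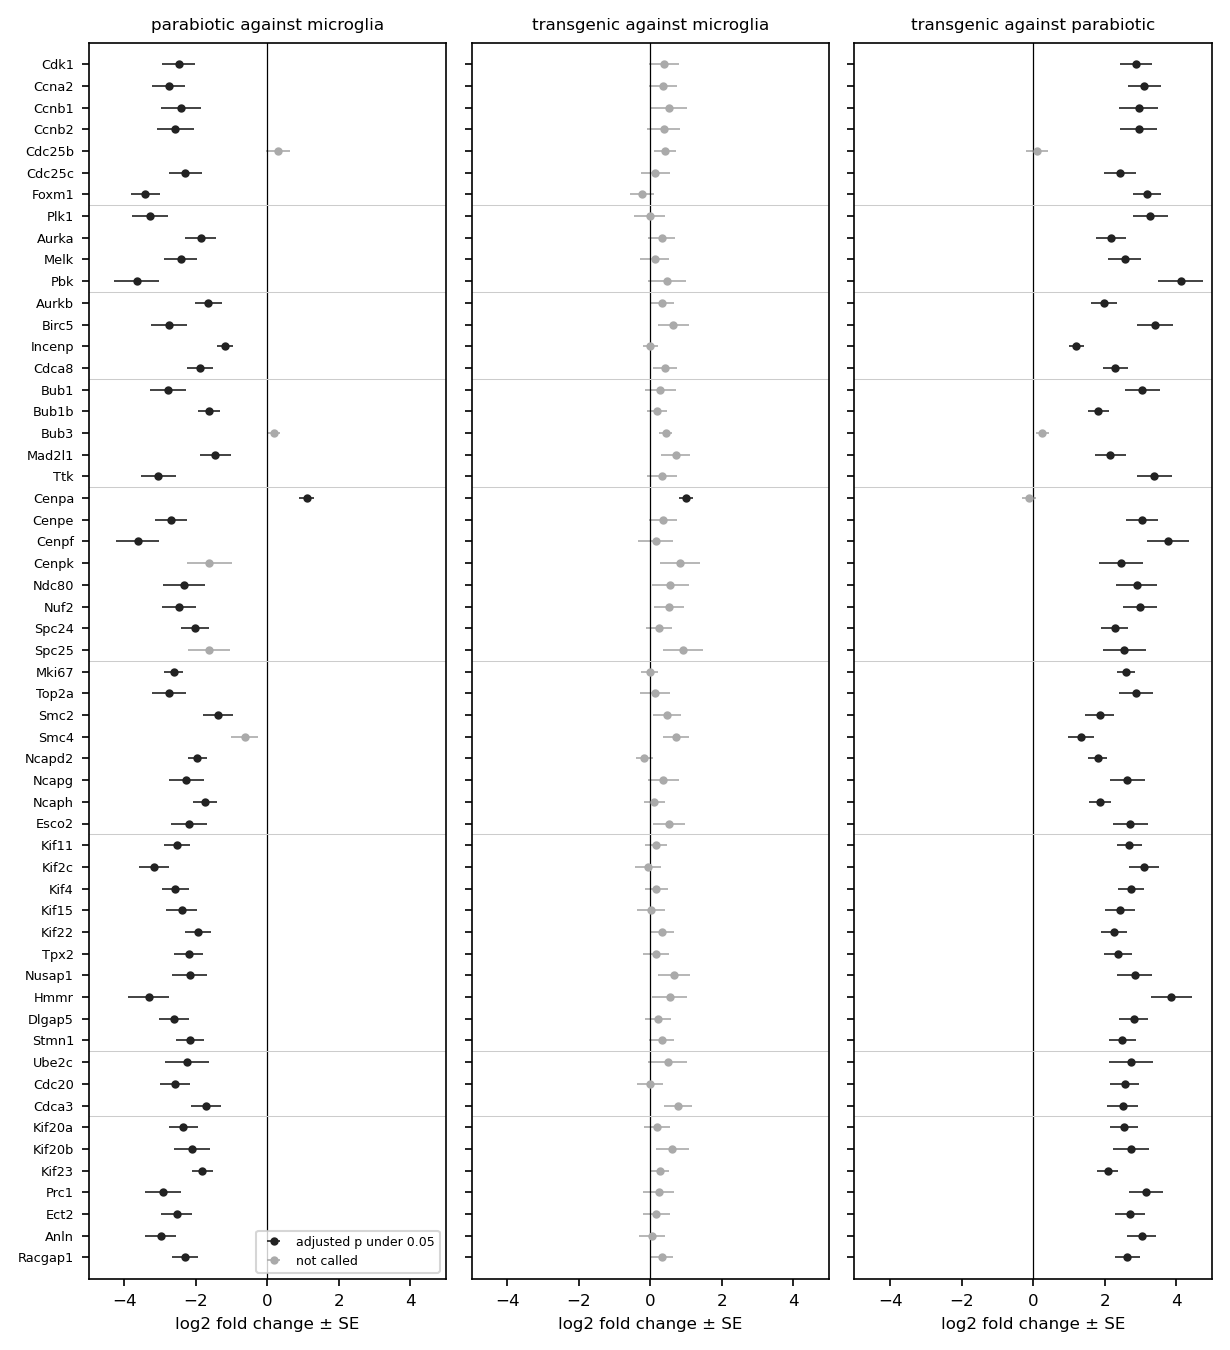
Log2 fold change with its SE (horizontal axis, edgeR) of each of the 56 genes (rows, grouped by role) in the 3 comparisons, dark where the adjusted p was under 0.05 and grey otherwise. 50 genes are called to the left of 0 in the first panel, 1 gene is called in the middle panel and 53 are called to the right of 0 in the last.

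The engine of mitotic entry comprises 7 of the genes, and 6 of them were lower in parabiotic cells than in microglia, with a median log2 fold change of -2.49. In what follows, values are given in the order of microglia libraries 39, 40 and 41, parabiotic libraries 3, 11 and 15, and transgenic libraries 23, 24, 26 and 27. Cdk1 (ENSMUSG00000019942, chr10:69335146-69352938, minus strand), the kinase whose activity defines mitosis, measured 36.2, 44.5 and 68.5 CPM in microglia, 9.42, 9.43 and 7.77 CPM in parabiotic cells and 39.2, 35.1, 128 and 57.2 CPM in transgenic cells. Its cyclin partner Ccna2, which acts from S phase into early mitosis, measured 34.6, 54.2 and 83.5 CPM in microglia, 10.2, 9.40 and 5.86 CPM in parabiotic cells and 54.6, 43.6, 134 and 60.7 CPM in transgenic cells. Both genes were several times lower in every parabiotic library than in any other library. Ccnb1, the cyclin that carries Cdk1 into the nucleus, measured 8.53, 14.000 and 21.4 CPM in microglia, 4.05, 3.01 and 1.09 CPM in parabiotic cells and 13.6, 12.8, 39.04 and 18.7 CPM in transgenic cells. Ccnb2, the Golgi-associated B cyclin, measured 30.3, 39.9 and 63.3 CPM in microglia, 12.8, 6.08 and 3.52 CPM in parabiotic cells and 35.8, 36.1, 93.7 and 64.9 CPM in transgenic cells. The lowest value of each B cyclin was that of parabiotic library 15, and parabiotic library 3 held the highest of its group. Against microglia the log2 fold change in parabiotic cells was -2.49 ± 0.46 (SE) for Cdk1 (adjusted p = 0.00167), -2.76 ± 0.46 for Ccna2 (adjusted p = 0.000855), -2.43 ± 0.56 for Ccnb1 (adjusted p = 0.00613) and -2.57 ± 0.52 for Ccnb2 (adjusted p = 0.00274). Transgenic cells exceeded parabiotic cells in these genes by 2.87 ± 0.45, 3.11 ± 0.45, 2.95 ± 0.55 and 2.95 ± 0.51 on the same scale.

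Foxm1, a transcription factor of the G2/M genes, measured 24.2, 32.8 and 48.8 CPM in microglia, 5.28, 2.59 and 2.03 CPM in parabiotic cells and 24.6, 23.1, 41.7 and 31.2 CPM in transgenic cells. It was among the 3 largest decreases of the members in parabiotic cells, with a log2 fold change of -3.41 ± 0.41 (adjusted p = 0.000103). Every parabiotic library lay below all others, while the microglia and transgenic ranges overlapped, and in transgenic cells it stood at a log2 fold change of -0.23 ± 0.34 against microglia, not called, the lowest of the 56 genes there.

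The phosphatases that remove the inhibitory phosphates of Cdk1 behaved differently from each other. Cdc25c, which acts at entry into mitosis, measured 4.77, 5.40 and 7.63 CPM in microglia, 1.87, 1.16 and 0.577 CPM in parabiotic cells and 5.11, 3.80, 8.45 and 8.77 CPM in transgenic cells and was lower in parabiotic cells than in microglia, by a log2 fold change of -2.30 ± 0.46 (adjusted p = 0.00275). Cdc25b (ENSMUSG00000027330, chr2:131186949-131198497, plus strand), which starts Cdk1 activation at the centrosome, measured 10.9, 17.6 and 26.9 CPM in microglia, 21.5, 26.7 and 19.7 CPM in parabiotic cells and 23.2, 21.1, 35.6 and 18.3 CPM in transgenic cells. For Cdc25b the parabiotic range lay inside that of microglia, and the log2 fold change was 0.29 ± 0.33 (adjusted p = 0.523). Between transgenic and parabiotic cells it was 0.12 ± 0.31 (adjusted p = 0.871), with a change of sign when transgenic library 26 was left out.

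All 4 mitotic kinases outside the engine were lower in parabiotic cells, with a median of -2.86. Plk1, the polo kinase needed for centrosome maturation and cytokinesis, measured 14.2, 20.9 and 36.3 CPM in microglia, 3.36, 2.34 and 1.55 CPM in parabiotic cells and 18.1, 17.8, 43.01 and 14.9 CPM in transgenic cells. Aurka, the kinase of the spindle poles, measured 12.1, 20.1 and 31.4 CPM in microglia, 6.35, 6.02 and 5.07 CPM in parabiotic cells and 17.7, 18.2, 47.7 and 21.8 CPM in transgenic cells. Pbk, a kinase expressed in mitosis, measured 21.98, 31.4 and 54.2 CPM in microglia, 3.33, 1.82 and 3.34 CPM in parabiotic cells and 31.8, 29.6, 113 and 23.3 CPM in transgenic cells. The parabiotic values of Plk1 and Pbk did not exceed 3.36 CPM, whereas Aurka kept 5.07 CPM or more in each parabiotic library. Pbk had the largest decrease of all members against microglia (-3.66 ± 0.63, adjusted p = 0.00110) and the largest excess in transgenic over parabiotic cells (4.12 ± 0.63, adjusted p = 0.00196). Plk1 differed by -3.30 ± 0.50 (adjusted p = 0.000487) and Aurka by -1.87 ± 0.43 (adjusted p = 0.00612) between parabiotic cells and microglia. Melk, the remaining kinase, was lower as well.

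The chromosomal passenger complex, which corrects wrong attachments of chromosomes and later guides cytokinesis, was lower in all 4 subunits, with a median of -1.77. Its kinase Aurkb measured 20.6, 24.7 and 38.4 CPM in microglia, 10.9, 9.003 and 6.68 CPM in parabiotic cells and 26.3, 25.96, 60.2 and 26.6 CPM in transgenic cells. Birc5, or survivin, which brings the complex to centromeres, measured 19.97, 26.9 and 40.4 CPM in microglia, 5.97, 3.07 and 3.83 CPM in parabiotic cells and 26.4, 23.8, 89.2 and 42.8 CPM in transgenic cells. The kinase subunit differed by -1.65 ± 0.37 (adjusted p = 0.00564) and survivin by -2.76 ± 0.51 (adjusted p = 0.00169) on the log2 scale against microglia. The scaffold Incenp had the smallest called decrease of all members, at -1.20, and Cdca8 (borealin) lay between the kinase and survivin. The subunits of 1 complex covered a range from -1.20 to -2.76.

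The spindle assembly checkpoint, which delays anaphase until every chromosome is attached, was lower in 4 of 5 genes, with a median of -1.63. Bub1b (BubR1), part of the inhibitory complex on Cdc20, measured 38.8, 47.4 and 75.2 CPM in microglia, 21.1, 18.5 and 12.4 CPM in parabiotic cells and 49.5, 52.1, 86.96 and 57.3 CPM in transgenic cells. Mad2l1, the other Cdc20-binding inhibitor, measured 15.2, 17.96 and 28.5 CPM in microglia, 7.06, 8.79 and 6.68 CPM in parabiotic cells and 21.8, 20.5, 65.6 and 26.2 CPM in transgenic cells. Parabiotic library 15 was the lowest of all for both of these genes. Bub1b differed by -1.63 ± 0.31 (adjusted p = 0.00186) and Mad2l1 by -1.45 ± 0.43 (adjusted p = 0.0226) between parabiotic cells and microglia. The call of Mad2l1 was lost when microglia library 41 (adjusted p = 0.0895), parabiotic library 3 (adjusted p = 0.0729) or parabiotic library 15 (adjusted p = 0.0762) was left out. Bub1 and Ttk, the kinases that act at the unattached kinetochore, were lower too.

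Bub3 (ENSMUSG00000066979, chr7:131560222-131571895, plus strand), which holds Bub1 and BubR1 at kinetochores, measured 77.9, 84.7 and 108 CPM in microglia, 105, 97.8 and 102 CPM in parabiotic cells and 100.5, 105, 147 and 134 CPM in transgenic cells. The 3 groups overlapped, and the parabiotic libraries lay within the microglia range. The log2 fold change was 0.17 ± 0.19 (adjusted p = 0.509) against microglia and 0.26 ± 0.18 (adjusted p = 0.425) for transgenic against parabiotic cells.

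Of the 8 centromere and kinetochore genes, 5 were lower in parabiotic cells, 2 were not called and 1 was higher, with a median of -2.18. Ndc80, a subunit of the complex that grips microtubules, measured 9.604, 15.4 and 22.03 CPM in microglia, 3.70, 1.61 and 4.01 CPM in parabiotic cells and 13.1, 14.7, 50.4 and 14.4 CPM in transgenic cells. Spc25, another subunit of that complex, measured 9.04, 17.01 and 29.1 CPM in microglia, 8.30, 3.89 and 5.59 CPM in parabiotic cells and 19.6, 19.2, 77.4 and 22.7 CPM in transgenic cells. Cenpk, which links that complex to centromeric chromatin, measured 2.63, 3.47 and 4.34 CPM in microglia, 1.49, 1.28 and 0.607 CPM in parabiotic cells and 2.93, 2.99, 14.3 and 4.58 CPM in transgenic cells. Ndc80 was lower by -2.33 ± 0.58 (adjusted p = 0.00917), whereas Spc25 (-1.63 ± 0.60, adjusted p = 0.0534) and Cenpk (-1.62 ± 0.62, adjusted p = 0.0626) were not called, although each parabiotic library lay below each microglia library. Both were called when transgenic library 26 was left out of the common fit, with adjusted p of 0.0107 and 0.00970, and in that library they reached their highest values. DESeq2 also called both (adjusted p = 0.0124 and 0.0197), as did edgeR on the groups compared alone (adjusted p = 0.0128 and 0.00738). The same held with the term for the library-number series (adjusted p = 0.0261 and 0.0170) and without both libraries numbered apart (adjusted p = 0.00855 and 0.00309). With RLE factors, limma-voom or no filter neither was called. Spc25 was also called without microglia library 39 (adjusted p = 0.0392) or transgenic library 24 (adjusted p = 0.0494). In transgenic against parabiotic cells both were called higher (2.55 ± 0.59 and 2.46 ± 0.61). That call of Spc25 was lost without parabiotic library 11 or 15 (adjusted p = 0.0908 and 0.0830), and that of Cenpk without parabiotic library 3, 11 or 15 (adjusted p = 0.0689, 0.0860 and 0.111). With the term for the library-number series both of these calls were lost (adjusted p = 0.0778 for Spc25 and 0.108 for Cenpk). The call of Spc25 was also lost without a filter (adjusted p = 0.0779). That of Cenpk was lost with limma-voom (adjusted p = 0.0629) and with edgeR on the groups compared alone (adjusted p = 0.0678). Cenpf, a large coiled-coil protein of kinetochores, measured 16.8, 27.9 and 45.4 CPM in microglia, 3.96, 2.13 and 1.18 CPM in parabiotic cells and 21.3, 23.2, 66.3 and 22.3 CPM in transgenic cells, which was the next largest decrease after Pbk (-3.63 ± 0.60, adjusted p = 0.000850). Cenpe, Nuf2 and Spc24 were called lower as well.

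Cenpa ran against the rest. Cenpa (ENSMUSG00000029177, chr5:30666777-30674830, plus strand), the histone H3 variant that marks centromeres, measured 30.2, 42.9 and 56.3 CPM in microglia, 102, 94.8 and 80.3 CPM in parabiotic cells and 86.1, 86.1, 88.9 and 81.3 CPM in transgenic cells. Every parabiotic and every transgenic library exceeded every microglia library, and the parabiotic and transgenic ranges overlapped. The log2 fold change was 1.10 ± 0.21 (adjusted p = 0.00201) for parabiotic cells against microglia, 2.14-fold higher, 0.99 ± 0.20 (adjusted p = 0.00877) for transgenic cells against microglia and -0.11 ± 0.19 (adjusted p = 0.806) between the CD11c groups. It was the 1 member called in the opposite direction to the others in parabiotic cells, in the fit with all libraries and in all 19 alternatives. In transgenic cells the call was lost without microglia library 40 (adjusted p = 0.0578). Within the microglia, however, Cenpa was ordered as the other members were, lowest in library 39 and highest in library 41. Hjurp, the chaperone that loads the Cenpa protein and not one of the 56 genes, was lower in parabiotic cells (-1.35 ± 0.17, adjusted p = 0.000146).

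**Figure D3:**
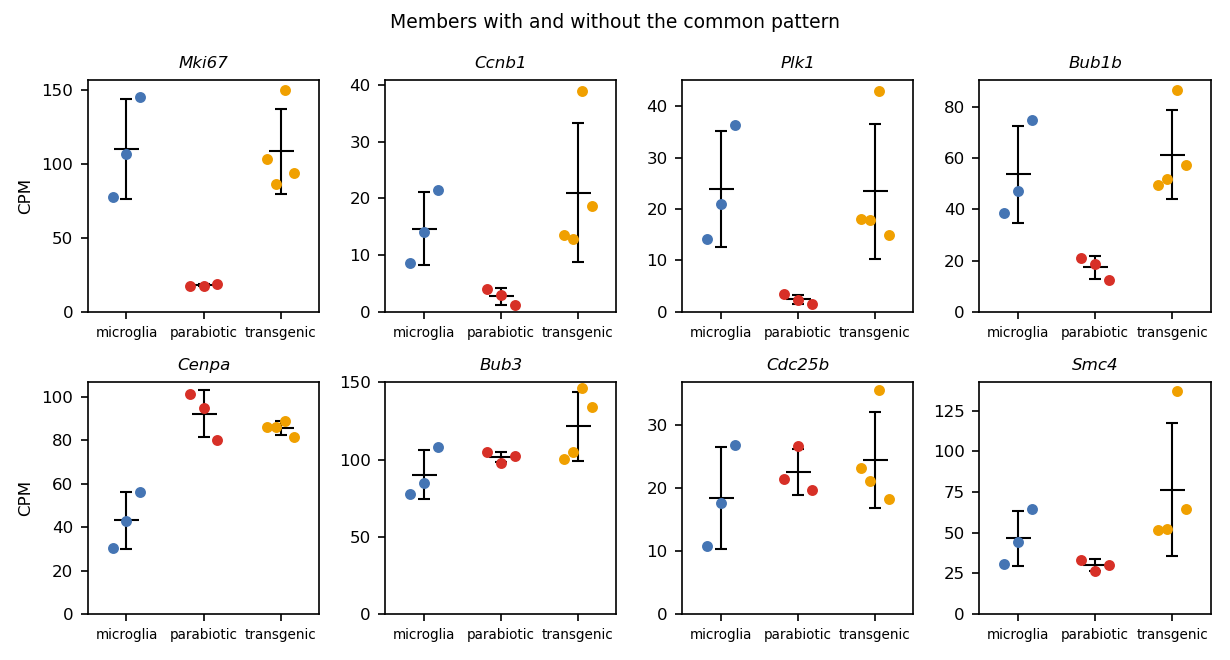
CPM (vertical axes, from 0) of 8 members in each library (points) of the 3 groups (horizontal axes), with mean and SD as bars. Mki67, Ccnb1, Plk1 and Bub1b are lowest in all 3 parabiotic libraries, whereas Cenpa is highest in the CD11c groups and Bub3, Cdc25b and Smc4 have overlapping parabiotic and microglia values.

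Genes of chromosome structure were lower in 7 of 8 cases, with a median of -2.08. Mki67 (ENSMUSG00000031004, chr7:135689784-135716361, minus strand), which encodes the Ki-67 protein that coats mitotic chromosomes, measured 77.6, 107 and 145 CPM in microglia, 17.7, 17.6 and 18.5 CPM in parabiotic cells and 103, 86.4, 150.02 and 93.9 CPM in transgenic cells. It had the smallest adjusted p of the members in parabiotic cells (-2.62 ± 0.27, adjusted p = 3.57e-05), and its parabiotic values were nearly equal. Top2a, the topoisomerase that untangles sister chromatids, measured 68.7, 114 and 179 CPM in microglia, 22.5, 16.1 and 15.03 CPM in parabiotic cells and 111, 104, 248.5 and 63.4 CPM in transgenic cells, a log2 fold change of -2.75 ± 0.49 (adjusted p = 0.00130). In both genes transgenic cells stood above every parabiotic library (2.60 ± 0.26 and 2.88 ± 0.48).

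Condensin, the ring complex that compacts chromosomes, has a pair of core subunits, Smc2 and Smc4, and regulatory subunits that differ between condensin I and II. Smc2 measured 34.3, 42.8 and 67.8 CPM in microglia, 20.99, 19.4 and 15.1 CPM in parabiotic cells and 45.1, 42.5, 129.7 and 51.1 CPM in transgenic cells. Smc4 measured 30.9, 44.4 and 64.3 CPM in microglia, 33.5, 26.5 and 30.1 CPM in parabiotic cells and 51.5, 52.1, 137 and 64.5 CPM in transgenic cells. The parabiotic range of Smc4 overlapped with that of microglia, and its log2 fold change was -0.63 ± 0.38 (adjusted p = 0.219). Smc2 was called lower (-1.38 ± 0.42, adjusted p = 0.0251), but not without microglia library 41 (adjusted p = 0.102) or without any 1 of the parabiotic libraries (adjusted p = 0.0555, 0.0653 and 0.0896). Against parabiotic cells, transgenic cells were higher in Smc2 (1.86 ± 0.41) and Smc4 (1.34 ± 0.36). The former call was lost without parabiotic library 3, 11 or 15 (adjusted p = 0.0529, 0.0612 and 0.0748). The latter was lost without any of these (adjusted p = 0.107, 0.145 and 0.126), without microglia library 40 (adjusted p = 0.0646) or without transgenic library 26 (adjusted p = 0.0627). With the term for the library-number series both calls were lost (adjusted p = 0.0605 for Smc2 and 0.162 for Smc4). That of Smc4 was also lost without both libraries numbered apart (adjusted p = 0.0522), without a filter (adjusted p = 0.0563) and on the groups compared alone (adjusted p = 0.0635). With limma-voom it was lost narrowly (adjusted p = 0.05005). Ncapd2 of condensin I measured 44.4, 51.7 and 75.2 CPM in microglia, 18.2, 11.98 and 13.6 CPM in parabiotic cells and 50.5, 48.2, 67.3 and 37.7 CPM in transgenic cells, a difference of -1.97 ± 0.27 (adjusted p = 0.000237). Ncapg and Ncaph, the other condensin I subunits among the members, and Esco2, an acetyltransferase for cohesin, were called lower. Ncapg2 of condensin II, not one of the 56 genes, was higher in parabiotic cells (1.24 ± 0.15, adjusted p = 0.000112) and in transgenic cells (0.88 ± 0.14, adjusted p = 0.00294) than in microglia, and measured 39.8, 41.97 and 52.5 CPM in microglia, 107, 113 and 97.4 CPM in parabiotic cells and 87.5, 80.6, 82.7 and 78.2 CPM in transgenic cells. Its transgenic and parabiotic values lay above all microglia values.

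All 10 spindle motors and microtubule-associated proteins were lower in parabiotic cells, with log2 fold changes from -1.94 to -3.32 and a median of -2.46. Kif11, the motor that pushes the spindle poles apart, measured 28.2, 42.7 and 61.9 CPM in microglia, 9.16, 7.85 and 6.07 CPM in parabiotic cells and 40.2, 40.9, 78.3 and 38.4 CPM in transgenic cells. Tpx2, which activates Aurka on the spindle, measured 29.1, 44.8 and 70.8 CPM in microglia, 10.02, 9.79 and 11.5 CPM in parabiotic cells and 42.4, 42.2, 94.2 and 36.05 CPM in transgenic cells. Kif2c, which takes microtubule ends apart, measured 21.5, 25.5 and 38.7 CPM in microglia, 3.85, 3.13 and 2.49 CPM in parabiotic cells and 19.2, 21.002, 50.1 and 18.3 CPM in transgenic cells. No parabiotic library reached any library of the other groups in these 3 genes. Their log2 fold changes against microglia were -2.52 ± 0.36 (adjusted p = 0.000297), -2.21 ± 0.40 (adjusted p = 0.00151) and -3.18 ± 0.43 (adjusted p = 0.000215). Hmmr, a spindle protein that also binds hyaluronan, measured 15.2, 25.5 and 40.1 CPM in microglia, 4.19, 2.37 and 1.49 CPM in parabiotic cells and 23.7, 23.2, 77.3 and 32.1 CPM in transgenic cells. Its excess in transgenic over parabiotic cells, 3.86 ± 0.58 (adjusted p = 0.00167), was surpassed among the members by Pbk alone. Stmn1, or stathmin, which destabilises microtubules, measured 7.26, 9.36 and 13.7 CPM in microglia, 2.21, 2.04 and 2.49 CPM in parabiotic cells and 8.79, 8.65, 22.2 and 10.9 CPM in transgenic cells, with a log2 fold change of -2.17 ± 0.40 (adjusted p = 0.00156) against microglia. Kif4, Kif15, Kif22, Nusap1 and Dlgap5 completed the group and were all called lower.

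The partners of the APC/C were lower in all 3 genes, with a median of -2.25. Cdc20, the activator that the checkpoint holds back, measured 16.3, 23.9 and 39.6 CPM in microglia, 4.82, 4.78 and 3.73 CPM in parabiotic cells and 19.5, 20.1, 46.1 and 19.3 CPM in transgenic cells. Ube2c, the enzyme that primes its substrates with ubiquitin, measured 9.24, 21.8 and 35.4 CPM in microglia, 5.69, 4.17 and 4.07 CPM in parabiotic cells and 21.4, 17.6, 69.5 and 14.98 CPM in transgenic cells. Parabiotic values of Cdc20 lay between 3.73 and 4.82 CPM, under the lowest value of either other group, 16.3 CPM. The log2 fold changes against microglia were -2.58 ± 0.42 (adjusted p = 0.000714) for Cdc20 and -2.25 ± 0.62 (adjusted p = 0.0158) for Ube2c, and Cdca3, which promotes destruction of the kinase Wee1, was lower as well. The call of Ube2c was lost without microglia library 41 (adjusted p = 0.0653), parabiotic library 11 (adjusted p = 0.0570) or parabiotic library 15 (adjusted p = 0.0580). It was also lost without a filter on low counts (adjusted p = 0.0588). Transgenic cells exceeded parabiotic cells in Ube2c by 2.73 ± 0.61, a call lost without parabiotic library 3, 11 or 15 (adjusted p = 0.0556, 0.0753 and 0.0746). This call was also lost without a filter (adjusted p = 0.0670) and with the term for the library-number series (adjusted p = 0.0600). Since 22.8% of the exon bases of Ube2c overlap the gene Tnnc2 on the opposite strand and the counting is not stated to use strand, its values are less certain.

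All 7 cytokinesis genes were lower, with a median of -2.35. Kif20a, the motor of the central spindle, measured 16.3, 23.6 and 37.99 CPM in microglia, 6.03, 5.35 and 3.86 CPM in parabiotic cells and 20.5, 21.4, 51.1 and 25.2 CPM in transgenic cells. Anln, or anillin, the scaffold of the contractile ring, measured 20.2, 32.7 and 47.8 CPM in microglia, 4.02, 4.44 and 4.25 CPM in parabiotic cells and 28.6, 27.6, 61.7 and 20.7 CPM in transgenic cells. Every parabiotic value of both genes was under 6.1 CPM, and every other value was above 16 CPM. Against microglia Kif20a differed by -2.35 ± 0.41 (adjusted p = 0.00123) and Anln by -2.99 ± 0.43 (adjusted p = 0.000326). In Kif20a, 29.3% of the exon bases overlap Cdc23 on the opposite strand, so that reads of the pair cannot be told apart there. Kif20b, Kif23, Prc1, Ect2 and Racgap1, which build and signal from the central spindle, were also called lower, and the 7 genes together ran from -1.82 to -2.99.

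Compared per kilobase of exon, the members' levels also changed order. The exon length was the union of all annotated exons of a gene, so the ranking of genes within a group depends on the annotation. In microglia the highest mean levels were those of Ccnb2 (29.1 CPM per kb), Pbk (20.02 CPM per kb) and Incenp (17.8 CPM per kb). In transgenic cells Ccnb2 (37.6 CPM per kb) and Pbk (27.6 CPM per kb) again led. In parabiotic cells the highest were Cenpa (15.7 CPM per kb), Bub3 (14.5 CPM per kb) and Incenp (7.79 CPM per kb), while Ccnb2 stood at 4.87 CPM per kb and Pbk at 1.58 CPM per kb. The median over members was 5.96 CPM per kb in microglia, 1.17 CPM per kb in parabiotic cells and 6.89 CPM per kb in transgenic cells.

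Within a group the members moved together from library to library. All 56 genes were lowest in microglia library 39 and highest in library 41, where 35.4% and 38.1% of all tested genes were. The CPM in library 41 was a median of 2.10 times that in library 39 (range 1.39 to 3.83). Among transgenic libraries, number 26 was highest for 55 of 56 members (27.8% of all tested genes), and for 52 of these it also exceeded every microglia library. Over all 56 members it exceeded every microglia library in 53, against 40.3% of all tested genes. It stood at a median of 2.47 times the mean of libraries 23 and 24 (range 1.03 to 4.82), while library 27 stood at 1.04 times that mean and library 24 at 0.980 times library 23. The parabiotic libraries were closer to each other, with number 3 highest in 41 members (33.3% of all tested genes).

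The median coefficient of variation of the members was 37.9% in microglia, 22.02% in parabiotic cells and 52.6% in transgenic cells, against 16.2%, 14.5% and 31.2% for all tested genes. Markers of cell type moved with the libraries as well. Transgenic library 26 had the highest sum of microglia markers of its group (18312 CPM, against 12371, 12501 and 6340.5 CPM in libraries 23, 24 and 27) and the lowest sum of dendritic markers (4148 CPM, against 15817, 17111 and 7041 CPM). Of the dendritic genes, however, Xcr1, Clec9a and Cd209a were lowest in library 27 (2.48, 0.463 and 5.94 CPM), and the rest in library 26. In microglia the sum of microglia markers was 20916, 22956 and 23288 CPM in libraries 39, 40 and 41, and that of astrocyte markers 182, 176 and 108 CPM. The sum of the 8 oligodendrocyte and precursor markers was 143, 205 and 273 CPM in those libraries, of which Cspg4 alone made up 48.0, 119 and 201 CPM. The other 7 genes of that list summed to 94.7, 86.1 and 72.6 CPM, in the opposite order. The part of these in the differences between libraries was not tested.

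**Figure D4:**
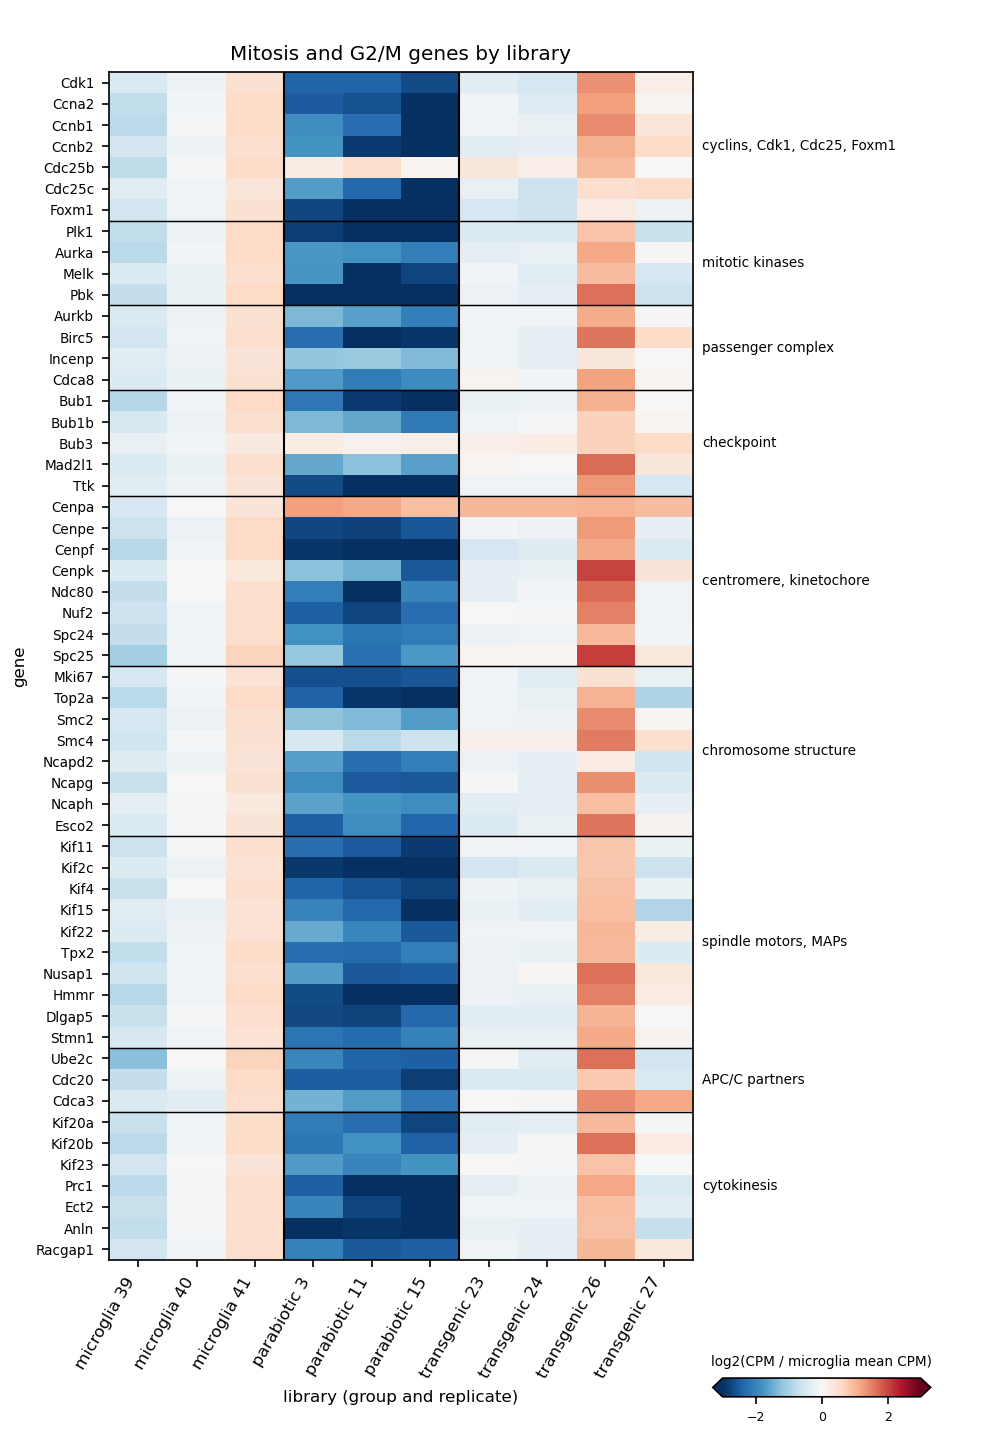
Each of the 56 genes (rows, grouped by role) in each of the 10 libraries (columns), coloured by the log2 ratio of its CPM to the mean CPM in microglia (scale from -3 to 3, blue lower, red higher). The parabiotic columns are blue except for Cenpa, Bub3 and Cdc25b, and transgenic library 26 is the reddest column.

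Other genes of the division cycle showed how far the pattern reached. Of 52 further mitotic genes, 40 were lower and 2 higher in parabiotic cells than in microglia, with a median log2 fold change of -1.67. The smallest p-values were those of Nsl1, a kinetochore protein (-2.61 ± 0.32, adjusted p = 0.000112), Hjurp and the cytokinesis kinase Cit (-2.54 ± 0.33, adjusted p = 0.000165). The 2 higher genes were Ncapg2 and Lmnb1, a lamin of the nuclear envelope (1.04 ± 0.22, adjusted p = 0.00377). Transgenic cells had 39 of the 52 higher than parabiotic cells, led by Nsl1 (2.58 ± 0.31, adjusted p = 0.000429), Kif18b (2.96 ± 0.39, adjusted p = 0.000757) and Cdca2 (3.16 ± 0.45, adjusted p = 0.00131), and 1 higher than microglia, Ncapg2.

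The 15 core subunits of the APC/C, which is present throughout the cycle, had smaller differences. In parabiotic cells 2 of them, Cdc27 (-0.69 ± 0.15, adjusted p = 0.00403) and Anapc15 (-0.83 ± 0.23, adjusted p = 0.0160), were lower than in microglia, a share near the 17.9% of all genes tested, and the list median was -0.15. Without both libraries numbered apart 5 were called. Of the 15, Cdc27 alone was called higher in transgenic than in parabiotic cells (0.61 ± 0.14, adjusted p = 0.0173), and 0 of the 15 were called between transgenic cells and microglia (edgeR, with 0 at an unadjusted p under 0.05 and 0 by DESeq2 or limma-voom). Without microglia library 39 or parabiotic library 3 or 11 the call of Anapc15 was lost (adjusted p = 0.0708, 0.0516 and 0.0519). The higher level of Cdc27 was not called without parabiotic library 3, 11 or 15 (adjusted p = 0.0784, 0.0876 and 0.0759). It was also not called without a filter (adjusted p = 0.0632) or on the groups compared alone (adjusted p = 0.0538).

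DNA replication genes followed in part. Of 34 S phase genes 16 were lower and 0 higher in parabiotic cells than in microglia (edgeR; 0 higher at an unadjusted p under 0.05 and by DESeq2 or limma-voom), with a median of -0.88. The smallest p-values were those of Uhrf1, which helps copy DNA methylation (-1.99 ± 0.22, adjusted p = 6.55e-05), the replication initiation factor Mcm10 (-3.55 ± 0.42, adjusted p = 0.000102) and the polymerase subunit Pole (-2.75 ± 0.47, adjusted p = 0.00102). Mcm10 measured 15.1, 16.7 and 26.1 CPM in microglia, 2.21, 1.09 and 1.64 CPM in parabiotic cells and 12.1, 13.7, 27.1 and 10.8 CPM in transgenic cells, with all parabiotic libraries far below the others. Transgenic cells had 20 of the 34 higher than parabiotic cells, with Mcm10 (3.27 ± 0.41, adjusted p = 0.000589), Uhrf1 (1.66 ± 0.21, adjusted p = 0.000677) and the ribonucleotide reductase subunit Rrm2 (3.04 ± 0.43, adjusted p = 0.00127) first. That number was 10 without parabiotic library 11 and 13 without library 3 or 15. Between transgenic cells and microglia 0 were called (edgeR, DESeq2 and limma-voom; 4 were higher at an unadjusted p under 0.05).

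Genes of the G1 phase and its regulators did not form a single pattern. Of 23 genes of G1 cyclins, E2F factors and DREAM subunits, 8 were lower and 2 higher in parabiotic cells than in microglia, beside 17.9% and 17.4% of all genes tested. The share called in either direction was thus not far from that of all genes, 35.3%, and the list median was -0.30. Lower were for example E2f7 (-3.01 ± 0.43, adjusted p = 0.000337), a repressor of the E2F family, E2f3 (-1.32 ± 0.22, adjusted p = 0.000912) and the S phase cyclin Ccne2 (-2.34 ± 0.45, adjusted p = 0.00201). Ccnd2, a D cyclin that couples growth signals to the cycle, was higher by 4.65 ± 0.48 (adjusted p = 3.87e-05), and Lin54, a DNA-binding subunit of DREAM and MuvB, by 0.87 ± 0.21 (adjusted p = 0.00736). Ccnd2 measured 4.49, 3.75 and 2.25 CPM in microglia, 106, 69.6 and 88.3 CPM in parabiotic cells and 43.7, 44.4, 14.7 and 19.3 CPM in transgenic cells. It was also higher in transgenic cells than in microglia (3.12 ± 0.44, adjusted p = 0.00122) and lower than in parabiotic cells (-1.53 ± 0.38, adjusted p = 0.0264), the latter not without parabiotic library 3, 11 or 15 (adjusted p = 0.11, 0.0511 and 0.0792). On the groups compared alone the lower level of Ccnd2 was not called either (adjusted p = 0.0553). Its order over the groups, with every parabiotic library above every transgenic one and those above microglia, was unlike that of the mitotic cyclins, in which the parabiotic libraries were lowest.

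Of 20 brakes of the cycle, 8 were lower and 4 higher in parabiotic cells than in microglia, where the share called higher was near the 17.4% of all genes tested. The list median was -0.42, and 7 genes in all were called without microglia library 40. The Cdk1-inhibiting kinase Pkmyt1 (-1.43 ± 0.23, adjusted p = 0.000627), the pocket protein Rbl1 (-1.14 ± 0.22, adjusted p = 0.00245) and the Cdk4 and Cdk6 inhibitor Cdkn2c (-2.14 ± 0.44, adjusted p = 0.00313) were lower. Cdkn1b, the inhibitor p27, was higher (1.19 ± 0.20, adjusted p = 0.000900), as was the stress gene Gadd45g (0.77 ± 0.21, adjusted p = 0.0132), though not without microglia library 40 (adjusted p = 0.0744). Cdkn1b measured 15.1, 13.6 and 13.96 CPM in microglia, 37.1, 27.8 and 32.2 CPM in parabiotic cells and 19.2, 21.3, 14.5 and 22.5 CPM in transgenic cells, so that all parabiotic libraries exceeded all others. In transgenic cells it was lower than in parabiotic cells (-0.74 ± 0.18, adjusted p = 0.0258), a call lost without parabiotic library 3 or 15 or transgenic library 23 (adjusted p = 0.133, 0.0813 and 0.0574), while 5 brakes were higher, among them Pkmyt1 (1.40 ± 0.22) and Cdkn2c (2.24 ± 0.42). The call of Cdkn1b was also lost with the term for the library-number series (adjusted p = 0.0669) and on the groups compared alone (adjusted p = 0.0589).

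**Figure D5:**
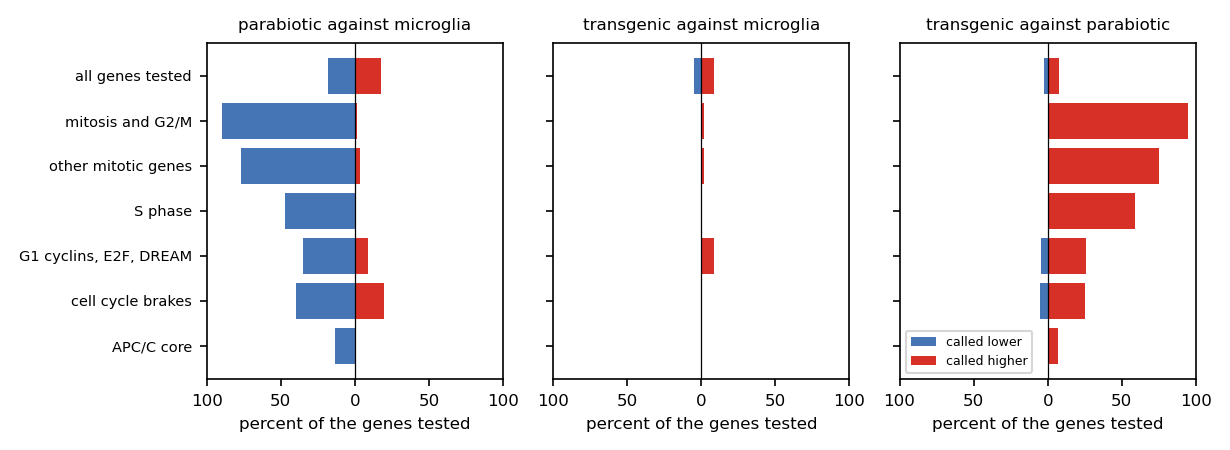
Percent of the tested genes of each list (rows) called lower (blue, to the left) or higher (red, to the right) at an adjusted p under 0.05 in the 3 comparisons. Mitotic lists have the longest bars in the outer panels, S phase genes shorter ones and the APC/C core the shortest, while few genes of any list were called between transgenic cells and microglia.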

How the data were processed

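RNA of 10 libraries of sorted brain cells was amplified with SMART-Seq v4 and sequenced. The deposited values are counts per gene, not normalized. Per the submitters' processing notes, FastQC 0.11.5, STAR 2.5.3a, DESeq2 and GRCm38 were used, and for the counting program, annotation and use of strand nothing is stated in the labels or notes used here. Gene symbols of 28492 gene IDs came from GENCODE M21. The counts were analysed in R 4.3.3 with edgeR 4.0.16: filterByExpr, TMM scaling, and 1 quasi-likelihood fit over all 3 groups, with Benjamini-Hochberg adjustment over 15151 genes and a threshold of 0.05. CPM used TMM library sizes and log2 CPM a prior count of 2. All p-values and adjusted p-values in the text come from edgeR unless another tool is named, and ± after a fold change is its SE. That SE was derived from the test, as the absolute log2 fold change over the square root of the quasi-likelihood F statistic. The common dispersion was 0.1002. Library totals of 31534625 to 41730688 counts enter each SE together with the spread between libraries, and the Wilson intervals of promoter shares cover 95%.

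Alternatives were other scalings and filters, DESeq2 1.42.0, limma-voom (limma 3.58.1), fits on the groups compared alone, a term for the library-number series, and leaving out each library. The promoter window around the start and the recounts of the other gene lists were chosen after seeing the data. The tests were checked on simulated data. Pairs of libraries of a group differed by at least 18.0 chi-square units per degree of freedom, so none was counted as a duplicate. The members and lists were chosen with earlier results of these data known. Genes given with values were members central to each role, the 3 largest changes in each direction and every exception. From each pathway list up to 3 genes of smallest p were given in the direction of most calls, and fewer in the other.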

Additional observations from a re-analysis of the deposited data

Results flagged for a closer look

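Transgenic library 26 stood apart from the other 3 libraries of its group. Its set mean of 5.94 log2 CPM lay above the others by 0.896 of the group's whole range, more than Dixon's 95% critical value for 4 samples. In 35 of the 56 members (62.5%) the gap was over that value, each time with library 26 the highest, against 1387 of the 15151 genes tested (9.15%), of which 347 were highest in library 26. Chance flags about 1 group in 20. Among the members given with values above, the kinases Plk1 (43.01 CPM), Aurka (47.7 CPM), Pbk (113 CPM) and Aurkb (60.2 CPM) were concerned. At kinetochores and the checkpoint these were Mad2l1 (65.6 CPM), Cenpf (66.3 CPM), Cenpk (14.3 CPM), Ndc80 (50.4 CPM) and Spc25 (77.4 CPM). Both condensin cores, Smc2 (129.65 CPM) and Smc4 (137 CPM), were included. Of the spindle genes Kif11 (78.3 CPM), Kif2c (50.1 CPM), Tpx2 (94.2 CPM), Hmmr (77.3 CPM) and Stmn1 (22.2 CPM) were included. Ube2c (69.5 CPM), Cdc20 (46.1 CPM) and Kif20a (51.1 CPM) were included too. The other 16 were Bub1, Ttk, Cdca8, Cenpe, Nuf2, Spc24, Ncapg, Ncaph, Esco2, Kif4, Nusap1, Dlgap5, Kif20b, Kif23, Prc1 and Ect2. Library 26 also had the highest microglia-marker sum and the lowest dendritic-marker sum of its group, whose part in these values was not tested.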

How the results depend on the processing

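Of the 51 members called between parabiotic cells and microglia, 48 kept their call in all 19 alternatives, and so did 48 of the 53 called between transgenic and parabiotic cells. Leaving out 1 library at a time gave 48 to 53 called members in the former comparison and 48 to 53 in the latter, with differences of the set mean from -2.41 to -1.87 and from 2.10 to 2.56. Between transgenic cells and microglia 0 to 1 members were called, 0 of them without microglia library 40, and the set mean difference ran from -0.0521 (without transgenic library 26) to 0.541 (without microglia library 41). It was -1.25e-05 without microglia library 39. The count of 1 stayed, with the members' median turned to negative values, with the term for the library-number series (1 called, median -0.19) and without both libraries numbered apart (1 called, median -0.20). Cenpk between these groups was -0.23 and -0.24 under these settings and -0.00939 to 1.07 with 1 library left out. In the same way Foxm1 ran from -0.45 to 0.071, Ncapd2 from -0.36 to 0.079 and Kif2c from -0.58 to 0.20. Between transgenic and parabiotic cells Cdc25b was -0.029 with the series term, -0.045 without both libraries numbered apart and -0.17 to 0.25 with 1 library left out, and Bub3 was -0.000503 without both. The cause of these changes was not tested.

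In lists of other genes, counts of called genes moved as follows. Without both libraries numbered apart, parabiotic cells against microglia gave 5 APC/C core genes, 16 G1 genes and 25 S phase genes, transgenic cells against microglia 3 other mitotic genes and 1 brake, and transgenic against parabiotic cells 2 APC/C core genes. With the 2 groups compared alone these were 4 APC/C core genes in the first comparison, 1 G1 gene in the next, and 0 APC/C core genes and 3 brakes in the last. DESeq2 called 2 other mitotic genes, 3 brakes and 4 G1 genes between transgenic cells and microglia. In that comparison 1 G1 gene was called with RLE factors, upper quartile scaling or no filter. Without a filter 0 APC/C core genes, and with the series term 13 S phase genes, were called between transgenic and parabiotic cells. With 1 library left out, parabiotic cells against microglia gave 33 to 44 other mitotic genes, 1 to 2 APC/C core genes, 7 to 13 brakes, 8 to 15 G1 genes and 14 to 19 S phase genes. For transgenic cells against microglia the ranges were 1 to 3, 0 to 0, 0 to 2, 1 to 3 and 0 to 2, and against parabiotic cells 29 to 42, 0 to 1, 3 to 7, 3 to 10 and 10 to 25.

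TTTGAA was found in 72.9% of member promoters in 300 bases of which 50 lie past the start, and in 64.6% within 50 bases of the start, where CCAAT was found in 47.9%. Upper quartile scaling moved the median of all genes between parabiotic cells and microglia to -0.10. No paired analysis was possible because the groups share no replicate numbers.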
